A study of Mus musculus with 24 samples.

Results

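Matrix metalloproteinases (MMP) and tissue inhibitors of metalloproteinases (TIMP) were followed in murine pancreatic stellate cells (PSC) that had been co-cultured with KPC cells. The 10 genes, chosen by name and found by gene identifier among 53801 listed genes, were 7 proteases (Mmp2, Mmp3, Mmp9, Mmp10, Mmp13, Mmp14 and Mmp19) and 3 inhibitors (Timp1, Timp2 and Timp3). PSC came from pancreata of wild-type C57BL/6J mice of 7 to 10 weeks, 4 to 10 of which were pooled per isolation, and were used at passage 1 to 2. The KPC line is a pancreatic cancer line from a single mouse, in which p48-Cre switched on Trp53 R172H. In the standard model, PSC on a membrane with 1 µm pores were placed above KPC cells at the bottom of the well. In the inverse model, KPC cells sat on the underside of the membrane that carried the PSC. Control PSC of each model were grown without KPC cells. RNA of the PSC was sequenced at 24 h and 72 h, which gave 8 groups of 3 libraries. The cells had coexisted for up to 96 h in the inverse and 72 h in the standard model, and 120 ng and 450 ng of RNA were used. Per the methods, PSC were also seeded in a different medium in each model, controls included. Model, coexistence, seeding medium and RNA input therefore cannot be told apart. Levels are given in FPKM, in which a gene's fragments are scaled by transcript length and by library depth.

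MMP are zinc-dependent proteases that cut collagens, proteoglycans, growth factors and other proteases outside the cell. Most are secreted as inactive proenzymes and are activated by removal of a propeptide, and TIMP block the active site by binding to it. Activated stellate cells lay down the dense stroma of pancreatic cancer, and the balance of MMP and TIMP sets how much of that matrix is kept or removed. All values here are transcript levels and say nothing of how much enzyme is active.

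The libraries held 15932737 to 24798761 counted fragments (median 18860269), and in each of them 12277 to 13307 genes exceeded an FPKM of 1. Of 10 stellate cell markers, 9 were above an FPKM of 1 in all 24 libraries, and Gfap was at most 0.237. The summed level of 10 macrophage markers was 423 to 1411 in the 4 libraries of replicate 2 of the standard model and 26.5 to 265 in the other 20 libraries. The summed level of 8 epithelial markers was 45.7 in replicate 2 of the inverse co-culture at 24 h and at most 10.7 elsewhere. That library had the highest Krt8, Krt18, Krt19, Krt7 and Cdh1 of all (15.2, 11.7, 11.6, 3.41 and 0.948 FPKM), while Epcam and Cldn4 were at most 0.123 in any library. At both time points, replicate 1 of the standard controls was the lowest control in Mmp2, Mmp3, Mmp9, Mmp10, Mmp13 and Mmp19 and the highest in Mmp14 and Timp3. In bulk RNA, fewer cells of a type and less RNA per cell cannot be told apart. The labels do not say whether the 3 libraries of a group came from separate isolations, so p-values measure the spread between these libraries.

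Co-cultured PSC of the inverse model had more transcript of Timp1 and of the stromelysins Mmp3 and Mmp10 than their controls at both time points. Mmp14 and Timp2, partners in the activation of the Mmp2 proenzyme at the cell surface, were lower in co-culture at 72 h. At 24 h, 8 of the 10 genes passed the filter, which asked for an FPKM over 1 in 3 or more of the compared libraries, and 3 of these 8 rose at a Benjamini-Hochberg adjusted p under 0.05, where 2.47% of 12827 genes were called, 1.08% higher and 1.39% lower. At 72 h, 5 of 8 were called, 3 higher and 2 lower, where 12.8% of 13066 genes were called, 3.27% higher and 9.57% lower. The 2 lower, Mmp14 and Timp2, were not called with median-ratio scaling, and all 5 calls were lost without replicate 1 of the co-culture. Mmp10 is among the called genes at both times. It passed the filter through its co-cultured libraries, so its calls, and the counts that include them, are not independent of the filter. In the standard model, 0 of 9 members tested were called at either time point, and so were 0% of 12859 genes at 24 h and 0% of 12863 genes at 72 h. Without adjustment, 1 of 9 had a p under 0.05 at 24 h and 5 of 9 at 72 h, and voom on recovered fragments called 0 as well. The study's own test, DESeq2, did call genes in the standard model at both times, with Timp1 among them at 72 h. All fold changes given here were computed from log2(FPKM + 0.5), so those of scarce genes are understated.

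Calls in the standard model changed with the replicate number as a block, that is, when libraries were compared within their number. Same-numbered libraries of that model deviated together from their group means, as given with the processing. With the block, 2 of 9 members were called at 24 h, Timp1 (log2 fold change 1.5, standard error 0.09, adjusted p = 0.00971) and Timp3 (-0.83, standard error 0.11, adjusted p = 0.0274), where 1.22% of 12859 genes were called. At 72 h the block called 0 members, a count given without the share of all genes and therefore no result about the members.

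Markers of other cells moved in the same comparison as the members called at 72 h in the inverse model. Of 10 macrophage markers 8 were tested and 7 fell (summed 56.1 to 87.9 FPKM in co-culture and 136 to 265 in control), and 6 of 6 adipocyte markers fell (409 to 953 and 1680 to 2488). There, 9.57% of all genes tested were called lower. The lower share of all calls went from 74.6% to 47.9% with median-ratio scaling, under which these lists were not tested again. Adgre1 (0.442 ± 0.123 and 2.71 ± 0.79 FPKM) passed the filter through the controls alone, so its call and the count of 7 are not independent of the filter. Of 8 epithelial markers 2 were tested and Krt19 rose, from 0.0974 ± 0.0896 to 2.04 ± 0.985 FPKM, having passed the filter through co-culture alone. The sum of the epithelial markers was 4.77 to 10.7 in co-culture and 2.5 to 6.71 in control, and the mean of Krt8 was 1.38 and 0, of Krt18 0.537 and 0, of Krt7 0.219 and 0.054 and of Cdh1 0.0686 and 0. Epcam and Cldn4 were listed at 0 in all 6 libraries, and Muc1 had a mean of 3.24 and 3.9. Neutrophil markers did not pass the filter, with S100a9 and Cxcr2 listed at 0 in all 24 libraries, and of 5 endothelial and 5 mesothelial markers 1 each was tested and 0 were called. In inverse co-culture at 24 h 0 macrophage and 0 adipocyte markers were called, where 1.39% of all genes tested were called lower. The summed epithelial markers there were 3.38, 45.7 and 8.29 FPKM in co-culture and 1.19, 2.03 and 1.73 in control, and of these markers 2 were tested and 0 called. Of the 9 stellate markers tested in the inverse model, Col3a1 and Pdgfra rose and Acta2 fell at 24 h, and Fbln2 and Pdgfra rose at 72 h. Of all genes tested, 1.08% were called higher and 1.39% lower at 24 h, and 3.27% higher at 72 h. In the standard model 0 marker genes were called, and so were 0% of all genes tested. The part of these cells in the levels of the members was not tested.

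**Figure D1:**
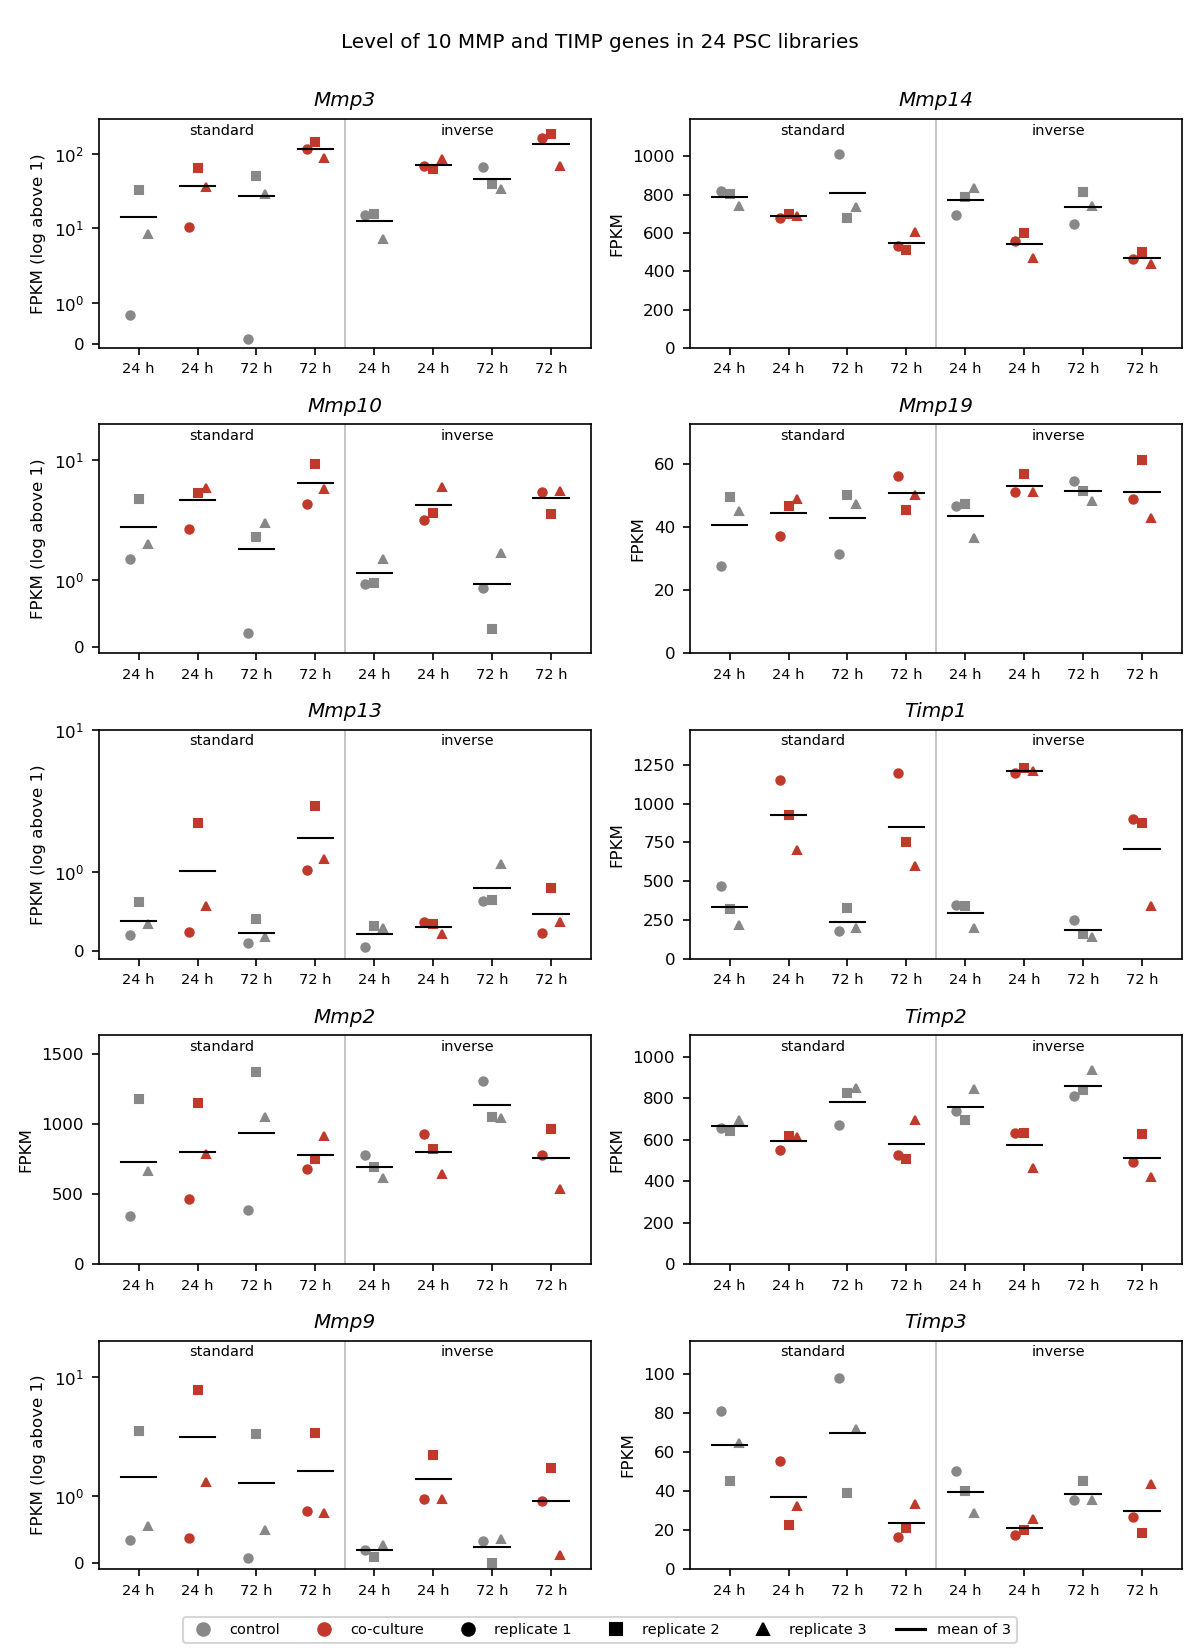
Level of each of the 10 genes in FPKM in the 24 libraries, by model and time point, with control PSC in grey, co-cultured PSC in red, the replicate number as the symbol and the mean of 3 as a line. The axes of Mmp3, Mmp9, Mmp10 and Mmp13 are logarithmic above 1, and Timp1 shows every co-cultured library above every control of its group, with 1201 to 1235 FPKM in the inverse co-culture at 24 h.

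The members fell into an abundant and a scarce set. Rescaled to the longest transcript of each gene, because the deposited FPKM rest on a mean transcript length, the median level over the 24 libraries was 395 for Timp1, 388 for Timp2, 366 for Mmp2 and 299 for Mmp14. It was 46 for Mmp3, 28.5 for Mmp19 and 17 for Timp3, and 3.07 for Mmp10, 0.361 for Mmp13 and 0.266 for Mmp9. Mmp9 was above an FPKM of 1 in 7 libraries and Mmp13 in 5, while Mmp2, Mmp14, Mmp19 and the 3 TIMP were above 1 in all 24. Mmp3 ran from 0.124 to 187 FPKM over the libraries, while the highest library was 4-fold above the lowest in Mmp2, 2.33-fold in Mmp14 and 2.21-fold in Mmp19.

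Mmp3 (7445822 to 7455975), Mmp10 (7502352 to 7510240) and Mmp13 (7272514 to 7283331) lie on the plus strand in a cluster of MMP genes on chromosome 9 of GRCm38, and their promoters are shown because the genes are known to share a short element near the start. Of the 10 members, 7 had an entry among the RefSeq promoters of GRCm38.p6 (250 bases before to 50 after the start), all but Mmp2, Mmp9 and Mmp19. In the 3 sequences below, capitals mark TGANTCA, the consensus of the transcription factor AP-1, and TATAAA, the TATA box.
Mmp3 (chr9:7445572-7445871, plus strand): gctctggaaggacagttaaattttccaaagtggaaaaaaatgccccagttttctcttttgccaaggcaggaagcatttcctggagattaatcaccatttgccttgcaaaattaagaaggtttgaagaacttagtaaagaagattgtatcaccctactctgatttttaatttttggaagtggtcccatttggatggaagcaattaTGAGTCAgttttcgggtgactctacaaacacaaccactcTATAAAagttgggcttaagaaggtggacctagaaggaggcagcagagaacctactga
Mmp10 (chr9:7502092-7502391, plus strand): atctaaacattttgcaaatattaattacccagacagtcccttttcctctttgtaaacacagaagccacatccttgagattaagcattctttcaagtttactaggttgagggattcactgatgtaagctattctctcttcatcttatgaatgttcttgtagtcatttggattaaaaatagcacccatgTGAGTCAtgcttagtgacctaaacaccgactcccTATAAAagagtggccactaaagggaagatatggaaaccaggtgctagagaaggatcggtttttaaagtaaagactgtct
Mmp13 (chr9:7272264-7272563, plus strand): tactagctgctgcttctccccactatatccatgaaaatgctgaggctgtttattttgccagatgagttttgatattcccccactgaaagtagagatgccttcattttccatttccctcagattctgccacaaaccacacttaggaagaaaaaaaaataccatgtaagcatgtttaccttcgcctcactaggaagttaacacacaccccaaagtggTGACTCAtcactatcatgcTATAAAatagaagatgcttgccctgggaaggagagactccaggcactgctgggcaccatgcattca
Each promoter held a single match to TGANTCA, beginning 46 bases before the start in Mmp3, 63 in Mmp10 and 35 in Mmp13, followed by a single TATAAA, beginning 7, 29 and 16 bases before the start. The same motifs, searched on both strands, had no match in the promoters of Mmp14, Timp1, Timp2 and Timp3. Over all 32851 promoters of the table, 7.81% held TGANTCA and 13.6% held TATAAA. A match describes the letters of this window and says nothing of binding.

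Mmp3, stromelysin, cuts proteoglycans, laminin and fibronectin and activates other MMP proenzymes. In the inverse model at 24 h it had 68.6, 62.9 and 86.6 FPKM in co-cultured PSC and 15.1, 15.9 and 7.14 FPKM in control PSC. All 3 co-cultured libraries lay above all controls, with a log2 fold change of 2.54 (95% confidence interval 1.91 to 3.16, standard error 0.28, adjusted p = 0.0052 from limma). At 72 h the levels were 164, 187 and 69.3 FPKM in co-culture and 66.5, 40.4 and 33.7 FPKM in control, and the groups again did not overlap, though replicate 3 of the co-culture was close to replicate 1 of the control. The log2 fold change at 72 h was 1.51 (95% confidence interval 0.60 to 2.42, standard error 0.39, adjusted p = 0.0441 from limma). It stayed under the limit without replicate 3 of the co-culture (adjusted p = 0.00664). Without any other single library it was above the limit, between 0.0613 without replicate 1 of the control and 0.15 without replicate 3 of the control, with 0.0839 without replicate 2 and 0.142 without replicate 1 of the co-culture and 0.109 without replicate 2 of the control. At 24 h Mmp3 was called in all 6 fits without 1 library, also without the co-cultured library with the highest epithelial markers (2.63, adjusted p = 0.0256). The groups of that fit still differed in these markers, with summed levels of 3.38 and 8.29 FPKM in co-culture and 1.19 to 2.03 in control. Their part in the level of Mmp3 was not tested. A single model over all 24 libraries did not call Mmp3 in the inverse model (adjusted p = 0.597 at 24 h and 0.47 at 72 h from limma).

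In the standard model, Mmp3 had 10.3, 66.2 and 36.4 FPKM in co-culture at 24 h and 0.708, 33.0 and 8.53 FPKM in control, and the groups overlapped. Replicate 1 of the control rested on 29 fragments, against 276 and 1044 in the other controls. At 72 h the levels were 117, 148 and 89.5 FPKM in co-culture and 0.124, 51.5 and 29.5 FPKM in control, all higher in co-culture, and replicate 1 of the control rested on 5 fragments. The ratio of same-numbered libraries was 14.6, 2.01 and 4.27 at 24 h and 940, 2.87 and 3.04 at 72 h, so that replicate 1 was far above the others. The log2 fold change was 2.06 at 24 h (adjusted p = 1 from limma, standard error 1.28) and 3.55 at 72 h (standard error 1.59, adjusted p = 0.779). With the replicate block the standard error was 0.36 at 24 h (adjusted p = 0.0602 from limma) and 1.24 at 72 h (adjusted p = 0.427). Without the block, the log2 fold change at 24 h was 0.78 without replicate 1 of the control alone and 3.18 without replicate 2 of the control. At 72 h it was 1.56 without replicate 1 of the control. Without replicate 1 of both groups it was 1.51 at 24 h (standard error 0.66, adjusted p = 0.627) and 1.55 at 72 h (standard error 0.33, adjusted p = 0.216).

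Mmp10, a second stromelysin that activates collagenases, was scarce, with 8 to 301 fragments in a library. In the inverse model it had 3.16, 3.65 and 5.95 FPKM in co-culture at 24 h against 0.948, 0.96 and 1.51 in control, and 5.46, 3.6 and 5.59 FPKM at 72 h against 0.879, 0.264 and 1.7. No co-cultured library was as low as a control, but only 1 of 3 controls was above an FPKM of 1 at each time, so Mmp10 passed the filter through its co-cultured libraries and neither the separation nor the calls are independent of the filter. The log2 fold change was 1.51 at 24 h (adjusted p = 0.0319 from limma, standard error 0.28) and 2.00 at 72 h (standard error 0.40, adjusted p = 0.0203). The call at 24 h was lost without replicate 2 of the co-culture (adjusted p = 0.09) and without replicate 1, 2 or 3 of the control (0.113, 0.121 and 0.0789). The call at 72 h was lost without replicate 1 of the co-culture (0.0792) and without replicate 1 of the control (0.0683). A single model over all 24 libraries called Mmp10 in the inverse model at 72 h (adjusted p = 0.0278 from limma) but not at 24 h (0.36). Within the standard model, Mmp10 had 2.69, 5.37 and 5.85 FPKM in co-culture at 24 h and 1.51, 4.79 and 2.00 in control, which overlapped. At 72 h it had 4.32, 9.4 and 5.74 FPKM in co-culture and 0.208, 2.28 and 2.98 in control, which did not overlap, and the log2 fold change of 1.81 (standard error 0.64) was not called (adjusted p = 0.745). Replicate 1 of the control rested on 8 fragments there, and without it the log2 fold change was 1.10 (adjusted p = 0.249).

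Mmp13, a collagenase that cuts fibrillar collagen, was near the limit of detection. It had 1.03, 2.9 and 1.23 FPKM in standard co-culture at 72 h, which were 52, 144 and 58 fragments, and 0.1, 0.408 and 0.178 FPKM in control, which were 6, 20 and 9 fragments. All 3 co-cultured libraries were higher (log2 fold change 1.53, adjusted p = 0.723 from limma, standard error 0.42). Mmp13 passed the filter there through the co-cultured libraries alone, so that its being tested required a difference. In the inverse model it was lower on average in co-culture at 72 h, with 0.224, 0.795 and 0.36 FPKM against 0.631, 0.638 and 1.13, the groups overlapped, and it did not pass the filter. The difference between the effects of both models at 72 h, tested over all 24 libraries, was -1.99 (95% confidence interval -3.2 to -0.78, inverse minus standard). Its unadjusted p of 0.00269 gave an adjusted p of 0.997 from limma, or 0.0933 with the replicate block (standard error 0.42 in place of 0.58). Over the 24 libraries Mmp13 was above an FPKM of 1 in 5, which include all 3 of standard co-culture at 72 h. It entered this test through them, so the difference is not independent of the filter either.

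Timp1, a secreted inhibitor of most soluble MMP that also acts as a growth factor through Cd63, lies on chromosome X (20870166 to 20874735, plus strand). Its promoter is shown beside those above because Timp1 rose with the stromelysins but lacks TGANTCA in this window. Capitals mark TGAGTAA, which differs from the consensus in a single base and was chosen after the sequence had been seen.
Timp1 (chrX:20869916-20870215, plus strand): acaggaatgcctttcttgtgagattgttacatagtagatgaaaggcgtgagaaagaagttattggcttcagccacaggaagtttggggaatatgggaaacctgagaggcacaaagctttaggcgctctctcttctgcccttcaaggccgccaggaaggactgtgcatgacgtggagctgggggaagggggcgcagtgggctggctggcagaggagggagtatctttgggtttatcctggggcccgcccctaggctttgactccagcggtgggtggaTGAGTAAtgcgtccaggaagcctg
The match begins 26 bases after the start. Of all 32851 promoters, 2.68% held TGAGTAA on either strand, and no other member with an entry did.

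In inverse co-culture at 24 h, Timp1 had 1201, 1235 and 1208 FPKM, against 344, 341 and 199 in control PSC. The co-cultured libraries differed from each other by less than the controls did (SD 17.9 and 82.8, n = 3 each), and the log2 fold change was 2.08 (95% confidence interval 1.64 to 2.52, standard error 0.19, adjusted p = 0.00341 from limma). It was called in all 6 fits without 1 library, with a log2 fold change of 1.82 to 2.22. At 72 h Timp1 had 900, 877 and 341 FPKM in co-culture and 251, 156 and 142 in control, and replicate 3 of the co-culture stood well below the other co-cultured libraries. The log2 fold change at 72 h was 1.86 (95% confidence interval 0.96 to 2.76, standard error 0.39, adjusted p = 0.023 from limma). This call was lost without replicate 1 of the co-culture (adjusted p = 0.0837) and without replicate 2 or 3 of the control (0.0687 and 0.0941), and without replicate 3 of the co-culture the log2 fold change was 2.32 (adjusted p = 0.0035).

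The standard model gave Timp1 levels of a similar size. Co-cultured PSC had 1149, 924 and 700 FPKM at 24 h against 470, 321 and 216 in control, and 1205, 750 and 599 FPKM at 72 h against 180, 328 and 197. Every co-cultured library lay above every control, and same-numbered libraries differed 2.45-, 2.88- and 3.23-fold at 24 h and 6.69-, 2.29- and 3.04-fold at 72 h. The log2 fold change was 1.5 at 24 h (95% confidence interval 0.70 to 2.30, adjusted p = 1 from limma) and 1.84 at 72 h (1.04 to 2.65, adjusted p = 0.614). Without replicate 1 of both groups it was 1.61 (adjusted p = 0.369) and 1.40 (adjusted p = 0.209). A single model over all 24 libraries called Timp1 at 72 h (adjusted p = 0.0418), alone among the members. The effect of co-culture on Timp1 was not shown to differ between the models, with a difference (inverse minus standard) of 0.58 at 24 h (95% confidence interval -0.53 to 1.69) and 0.02 at 72 h (-1.09 to 1.13). That fit has no replicate block, and with the number as a block within each model the standard error of the difference fell from 0.53 to 0.38 at both times and it was still not called (adjusted p = 1 and 0.996).

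**Figure D2:**
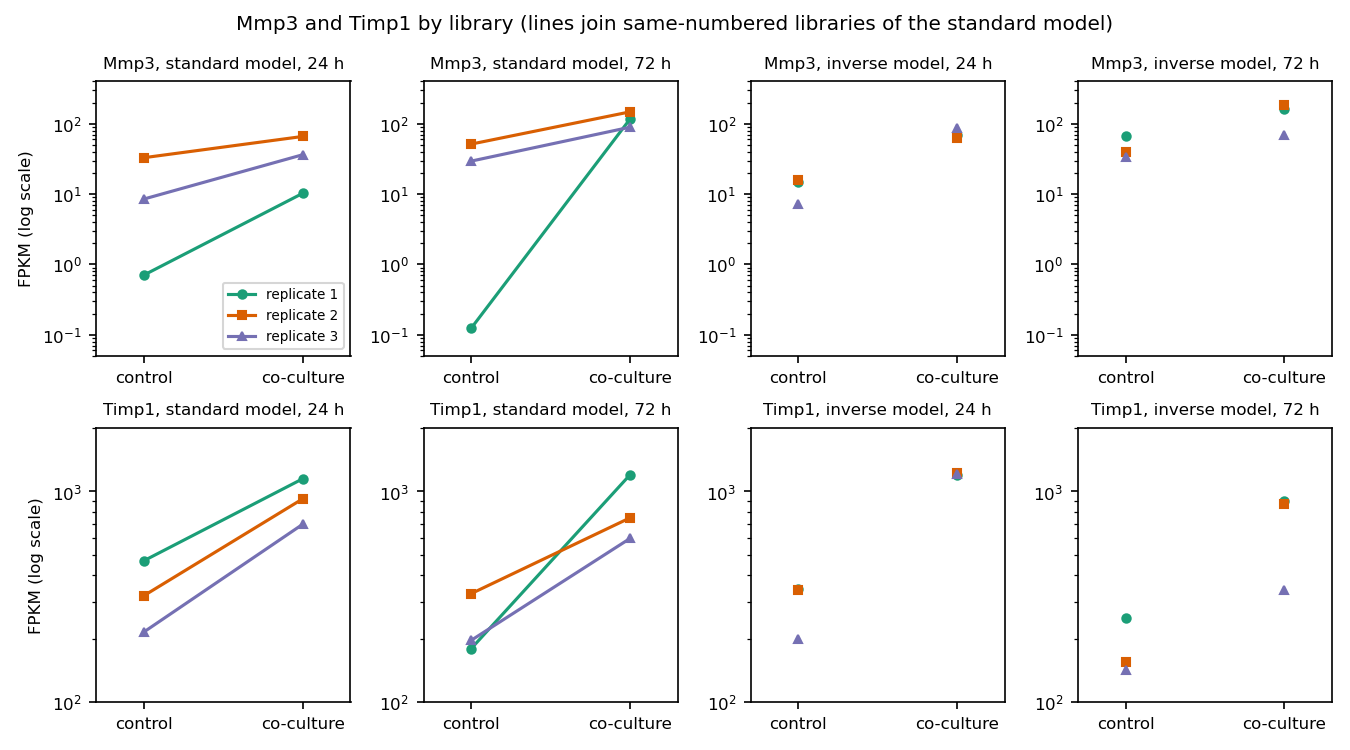
Level of Mmp3 (upper row) and Timp1 (lower row) in FPKM on a log scale, in control and co-cultured PSC of both models and time points, with the replicate number as the symbol. Lines join same-numbered libraries of the standard model, where the numbers pair them, and all 6 lines of each gene rise, and the line of replicate 1 for Mmp3 in the standard model starts at 0.708 FPKM at 24 h and at 0.124 FPKM at 72 h.

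Mmp2, Mmp14 and Timp2 act together at the cell surface. Mmp14 is a membrane-anchored collagenase that cleaves the Mmp2 proenzyme, Timp2 holds that proenzyme on Mmp14, and active Mmp2 is a gelatinase of basement membrane collagen. In inverse co-culture at 72 h Mmp14 had 466, 500 and 435 FPKM against 646, 815 and 739 in control, and Timp2 had 494, 627 and 418 FPKM against 810, 838 and 934. In both genes every co-cultured library was below every control. The log2 fold change was -0.65 for Mmp14 (95% confidence interval -0.94 to -0.36, adjusted p = 0.0185 from limma) and -0.76 for Timp2 (-1.14 to -0.39, adjusted p = 0.0239). Over all genes tested there, the median was -0.16, and 74.6% of the called genes were lower. Median-ratio scaling of the libraries moved that median to -0.01 and the lower share to 47.9%, and then neither was called (Mmp14 -0.49, adjusted p = 0.0577, and Timp2 -0.60, adjusted p = 0.0518). The call of Mmp14 was lost without replicate 1 of the co-culture (0.0737) or replicate 3 of the control (0.0801). That of Timp2 was lost without replicate 1 of the co-culture (0.0905) and without replicate 1, 2 or 3 of the control (0.0719, 0.0576 and 0.0988).

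At 24 h in the inverse model Mmp14 had 559, 597 and 468 FPKM in co-culture and 694, 788 and 835 in control, and Timp2 had 632, 632 and 461 against 738, 695 and 844. Neither group of libraries overlapped with its control, but neither gene was called (log2 fold change -0.51, adjusted p = 0.0702, and -0.41, adjusted p = 0.209, from limma). Of the genes called at 24 h 56.2% were lower, or 44.8% with median-ratio scaling. For the standard model, Mmp14 had 676, 696 and 687 FPKM in co-culture at 24 h against 817, 802 and 738, and 533, 511 and 603 FPKM at 72 h against 1012, 678 and 736. Mmp14 thus did not overlap with its control in any of the 4 comparisons, with log2 fold changes between -0.65 and -0.19. Timp2 of the standard model had 549, 618 and 615 FPKM against 657, 644 and 695 at 24 h, and 527, 508 and 697 against 669, 826 and 850 at 72 h, where a single pair of libraries overlapped.

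Mmp2 was not called in co-culture at either time. Its levels in inverse co-culture were 928, 825 and 644 FPKM against 780, 692 and 615 in control at 24 h, and 776, 963 and 536 against 1309, 1053 and 1043 at 72 h. The groups overlapped at 24 h (log2 fold change 0.19, adjusted p = 0.635 from limma) and not at 72 h, when co-culture was lower (-0.61, 95% confidence interval -1.12 to -0.11, adjusted p = 0.101). The effect at 72 h minus that at 24 h was -0.80 (95% confidence interval -1.42 to -0.19) and did not pass the adjusted limit (0.366). Within the standard model Mmp2 differed more between replicate numbers than between cultures, with 344 and 387 FPKM in replicate 1 of the controls and 1177 and 1375 in replicate 2.

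Mmp9, a gelatinase abundant in macrophages and neutrophils, was scarce in all groups, with 0 to 232 fragments. It was highest in replicate 2 of the standard model, with 7.67 and 3.48 FPKM in co-culture and control at 24 h and 3.37 and 3.33 at 72 h, and at most 2.23 in any other library. These are the 4 libraries with the highest summed macrophage markers (423, 558, 821 and 1411), and the part of these markers in the level of Mmp9 was not tested. In inverse co-culture at 24 h Mmp9 had 0.961, 2.23 and 0.959 FPKM, or 27, 66 and 20 fragments, against 0.194, 0.0935 and 0.274 in control, or 4, 3 and 6 fragments. All co-cultured libraries were higher, but Mmp9 did not pass the filter and was not tested. The summed macrophage markers were 26.5 to 89.4 FPKM in co-culture and 76.4 to 88.3 in control, and the library with the highest Mmp9, replicate 2, was that with the highest epithelial markers (45.7). Their part in the level of Mmp9 was not tested. At 72 h it had 0.927, 1.73 and 0.124 FPKM in co-culture and 0.334, 0 and 0.356 in control, and the groups overlapped.

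Timp3, which binds to the matrix and also inhibits ADAM and ADAMTS proteases, was lower on average in all 4 co-cultures. It had 16.8, 21 and 33.7 FPKM in standard co-culture at 72 h against 97.7, 39.3 and 71.9 in control, with no overlap (log2 fold change -1.49, 95% confidence interval -2.43 to -0.56, adjusted p = 0.723 from limma). At 24 h it had 55.4, 22.9 and 32.4 FPKM against 81.1, 45.0 and 64.4, which overlapped, although the co-cultured library was lower than the control of the same number in 3 of 3 pairs. Within the inverse model it had 17.7, 20.2 and 25.7 FPKM against 50.5, 40.1 and 28.6 at 24 h (log2 fold change -0.87, adjusted p = 0.0827), and 26.6, 18.5 and 43.9 against 35.3, 45.4 and 35.3 at 72 h (-0.46, adjusted p = 0.306). Without replicate 3 of the co-culture it was called at both time points (-1.01, adjusted p = 0.0385, and -0.78, adjusted p = 0.0348). Without replicate 2 of the co-culture it was -0.84 at 24 h (adjusted p = 0.219) and -0.17 at 72 h (adjusted p = 0.654). Of the exon bases of Timp3, 21.3% are shared with Syn3 on the other strand, and counting without strand cannot tell them apart.

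Mmp19, a secreted protease of basement membrane proteins, varied little. Its level was 27.8 to 61.5 FPKM over the 24 libraries, and its log2 fold change in co-culture was between -0.02 and 0.29, with no call, and the -0.02, in the inverse model at 72 h, was 0.13 with median-ratio scaling. Standard co-culture at 24 h had 37.3, 46.9 and 49.1 FPKM against 27.8, 49.6 and 45.2 in control, which overlapped. Its log2 fold change there, 0.15, turned to -0.10 without replicate 1 of the control. At 72 h it was 0.26, or 0.05 without replicate 1 of the control (31.5 FPKM, against 50.2 and 47.3). For the inverse model at 24 h it had 51.2, 57 and 51.3 FPKM in co-culture and 46.6, 47.3 and 36.6 in control, which did not overlap (log2 fold change 0.29, 95% confidence interval 0.01 to 0.58, adjusted p = 0.322 from limma). Of its exon bases, 28.3% are shared with genes on the other strand.

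**Figure D3:**
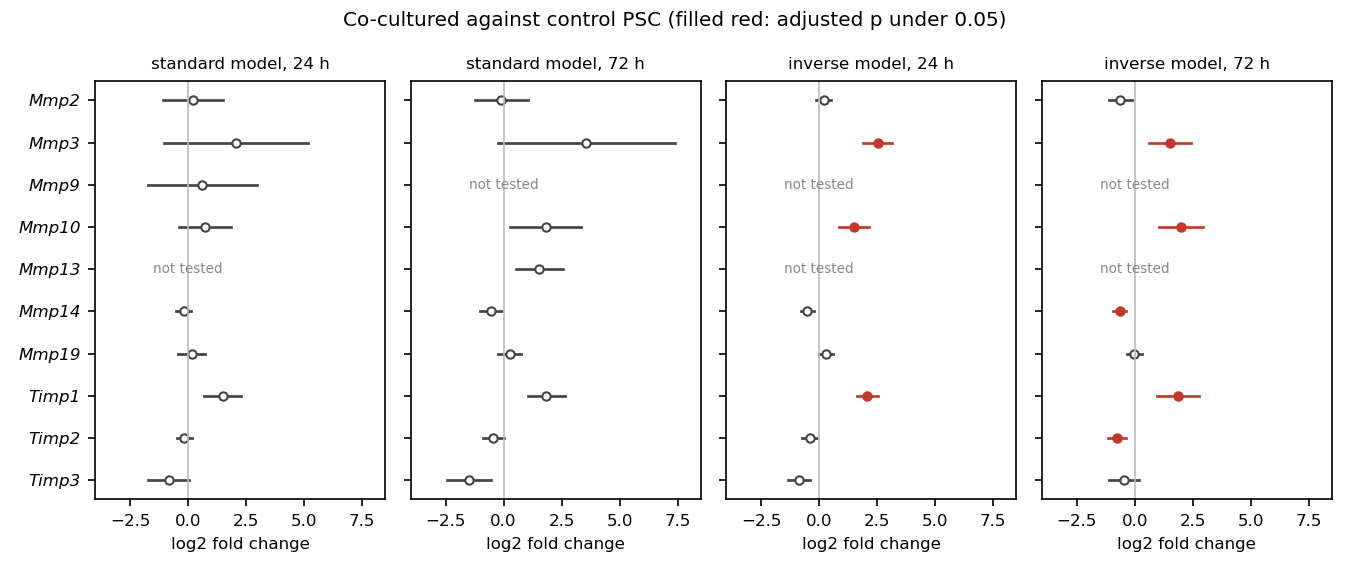
Log2 fold change of co-cultured against control PSC for each member with its 95% confidence interval from limma, in the 4 comparisons. Filled red points had an adjusted p under 0.05, namely 3 in the inverse model at 24 h, 5 at 72 h and 0 in the standard model, where the interval of Mmp3 was widest.

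The number of members whose libraries did not overlap between the groups was 3 of 9 in the standard model at 24 h (7.73% of all genes tested), 6 of 9 at 72 h (13.1%), 7 of 8 in the inverse model at 24 h (21.2%) and 6 of 8 at 72 h (38.3%). The filter counted the libraries of both groups, and Mmp10 in the inverse model and Mmp13 in the standard model at 72 h passed through co-culture, so these counts describe the members that passed and support nothing further. Timp1 was higher and Mmp14 lower in all 4 comparisons. Mmp3 and Mmp10 were higher in 3 of them, and Timp2 was lower in 3. The median log2 fold change of the members tested was 0.21 and 0.26 in the standard model at 24 h and 72 h and 0.24 and -0.24 in the inverse model, beside -0.01, -0.09, -0.06 and -0.16 for all genes tested.

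The make-up of the TIMP transcripts differed more than their sum. Timp1 made up 31.0% ± 8.38 of the summed FPKM of the 3 TIMP in standard controls at 24 h and 58.8% ± 6.8 in co-culture (SD, n = 3 each), and 21.4% ± 5.36 and 57.5% ± 12 at 72 h. Within the inverse model it made up 26.9% ± 7.22 and 67.2% ± 3.56 at 24 h and 16.9% ± 5.31 and 54.5% ± 10.7 at 72 h. No co-cultured library had a share as low as a control of its group. The summed TIMP level was 1093 ± 34.4 FPKM in control and 1811 ± 102 in co-culture at 24 h of the inverse model, and 1083 ± 38.6 and 1249 ± 389 at 72 h. Mmp2 and Mmp14 together made up 84.9% to 97.8% of the summed FPKM of the 7 MMP, so that the MMP sum hardly shows the stromelysins. The MMP sum, and the ratio below, leave out abundant MMP that are not members, with Mmp11 at 67.8 to 584 FPKM and Mmp23 at 93.5 to 290 FPKM. Mmp3 made up 1.8% to 3.2% of that sum in inverse controls and 6.36% to 11.2% in co-culture at 72 h. The ratio of the MMP sum to the TIMP sum was 1.40 ± 0.0351 in inverse controls and 0.811 ± 0.065 in inverse co-culture at 24 h, and 1.82 ± 0.121 and 1.17 ± 0.169 at 72 h, without overlap at either time. For the standard model it was 1.51 ± 0.532 and 1.03 ± 0.311 at 24 h, which overlapped, and 1.66 ± 0.15 and 1.06 ± 0.24 at 72 h. All these sums are of deposited FPKM, which exceed the values per longest transcript 2.14-fold for Mmp2, 2.28-fold for Mmp14 and 1.03-fold for Timp1. The height of a share or ratio therefore depends on the length used. Rescaled to the longest transcript, Timp1 made up 37.4% ± 8.89 of the TIMP in inverse controls and 77% ± 2.84 in inverse co-culture at 24 h. The sums share the libraries and the genes tested above and were not tested themselves.

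**Figure D4:**
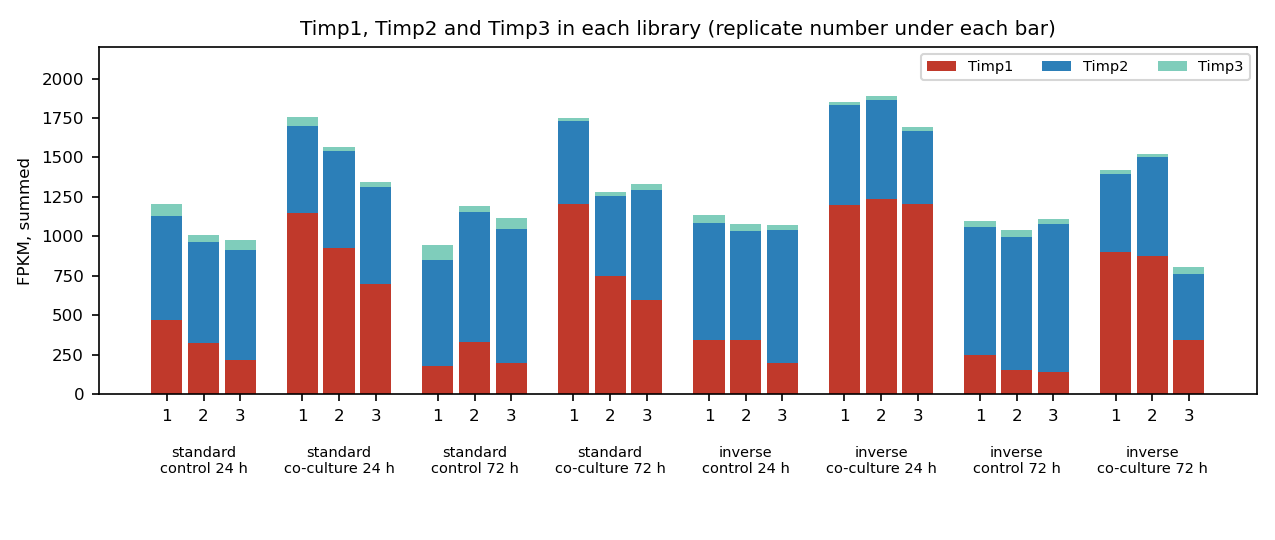
Summed FPKM of Timp1 (red), Timp2 (blue) and Timp3 (green) in each of the 24 libraries, by group and replicate number. The red share is at least 42.5% in every co-cultured library and at most 38.9% in every control.

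Control PSC were compared between the time points. For the inverse model 2 of 7 members tested were called between 72 h and 24 h, where 19.2% of 13092 genes were called. Mmp3 was higher at 72 h (log2 fold change 1.86, adjusted p = 0.00631 from limma, standard error 0.32) and so was Mmp2 (0.70, adjusted p = 0.0077, standard error 0.13), with the per-library levels given above. Both were called in all 6 fits without 1 library, and neither was called in a single model over all 24 libraries. In the same controls the summed adipocyte markers were between 628 and 1057 FPKM at 24 h and between 1680 and 2488 at 72 h, the macrophage markers between 76.4 and 88.3 and between 136 and 265, and their part in the levels of Mmp2 and Mmp3 was not tested. Timp1 was 295 ± 82.8 FPKM in inverse controls at 24 h and 183 ± 59.5 at 72 h (log2 fold change -0.69, adjusted p = 0.0948). In standard controls 0 of 8 members tested were called between the time points (0% of 12963 genes). Between the controls of both models 0 of 8 were called at 24 h (0% of 12903 genes) and 0 of 8 at 72 h (0% of 13106 genes).

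No member was called for a difference in the co-culture effect between the models or between the time points. The co-culture effect of the inverse model minus that of the standard model was called in 0 of 10 members at 24 h and 0 of 10 at 72 h (0% of 14452 genes at either time). The effect at 72 h minus that at 24 h was called in 0 of 10 members in the standard model (0% of 13694 genes) and in 0 of 8 in the inverse model (0% of 13722 genes). The intervals were wide for Mmp3, with -3.12 to 4.07 at 24 h and -5.64 to 1.55 at 72 h for inverse minus standard, and narrower for Mmp14, with -0.74 to 0.10 and -0.52 to 0.31. These intervals come from fits without the replicate block, which ignore the pairing of the standard libraries. The unadjusted p was under 0.05 in 1 of these tests at 72 h between the models, that of Mmp13, and in 1 between the time points in the inverse model, that of Mmp2. The p of Mmp13 is not independent of the filter, as given above.

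Of 17 other genes of the family (the remaining MMP and Timp4), 9 were above an FPKM of 1 in any library. In inverse co-culture 1 of 8 tested fell at 24 h and 3 of 7 fell at 72 h, and 0 rose, where 1.39% and 9.57% of all genes tested were called lower. The lower share of all calls at 72 h went from 74.6% to 47.9% with median-ratio scaling, under which this list was not tested again. Mmp17 fell at 24 h from 17.9 ± 0.548 to 11.6 ± 0.985 FPKM (adjusted p = 0.0405 from limma). At 72 h Mmp11, also called stromelysin but with little activity on matrix proteins, fell from 403 ± 100 to 136 ± 19.2 FPKM (log2 fold change -1.54, adjusted p = 0.00575). The membrane-type Mmp15 fell from 5.82 ± 0.542 to 1.78 ± 0.733 and Mmp28 from 15.7 ± 2.14 to 7.57 ± 2.23 FPKM (adjusted p = 0.0127 and 0.0237, SD, n = 3 each). The median of the list was -0.50 at 24 h and -0.85 at 72 h. Within the standard model 0 of 9 and 0 of 8 were called, with medians of -0.24 and -0.59.

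Of 21 genes that activate, localise or clear MMP, 3 rose and 1 fell in inverse co-culture at 24 h and 5 rose at 72 h, where 1.08% and 3.27% of all genes tested were called higher. Plat, the tissue plasminogen activator, rose at both, from 47.1 ± 3.55 to 103 ± 9.28 FPKM and from 53.6 ± 5.25 to 104 ± 16.1 (adjusted p = 0.00462 and 0.00843 from limma). Lcn2, which binds Mmp9, and Pcsk5, a proprotein convertase, rose at 24 h (log2 fold change 1.35 and 1.12), and Pcsk6 fell (-0.74). At 72 h Lcn2 was not called, and its mean was lower in inverse co-culture (10.5 FPKM) than in control (24.1 FPKM). Tfpi2, an inhibitor of plasmin and other serine proteases, and Plaur, the receptor of urokinase, rose at 72 h, by 1.21 and 0.84. Cd44, a docking site of Mmp9 that was named after its value had been seen, rose by 0.68. The medians were 0.16 and 0.36, and 0 of 21 were called in the standard model at either time.

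Of 16 transcription factors known to act on MMP promoters, 0 were called in inverse co-culture at 24 h and 2 rose at 72 h. There, 3.27% of all genes were called higher and 12.8% in either direction. The list itself was not tested, so that the count of 2 is no result about it. Fosl1, a subunit of AP-1, rose from 4.74 ± 0.42 to 14.3 ± 2.75 FPKM (log2 fold change 1.48, adjusted p = 0.00512 from limma), and Etv4, of the ETS family, rose from 11.1 ± 3.51 to 26.0 ± 1.53 (1.24, adjusted p = 0.0138). Of 13 cytokines and growth factors that induce MMP or TIMP, Il6 rose from 26.8 ± 4.93 to 63.1 ± 18.4 FPKM at 24 h and from 37.0 ± 22 to 107 ± 26.8 at 72 h (adjusted p = 0.0311 and 0.0482). Fgf2 rose at both times (0.83 and 0.91) and Lif at 72 h (1.31), while Tgfb3 fell at 24 h (-0.94) and Pdgfa at 72 h (-0.68). Of the cytokines 8 were tested at 24 h, where 2.47% of all genes were called, and 9 at 72 h, with a median of 0.49 and 0.32, and the median of the transcription factors was 0.06 and 0.13, beside -0.06 and -0.16 for all genes tested. For the standard model 0 genes of these lists were called.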

How the data were processed

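PSC RNA of 24 libraries was analysed from 1 table of FPKM. Per the labels and methods, the authors aligned reads to GRCm38.p6 with HISAT2 2.0.5, counted with featureCounts 1.5.0-p3 and deposited FPKM (DESeq2 1.20.0 was their test). Of 53801 genes, 53706 were found in GENCODE release M21 and 96.2% of those above 0 gave whole fragments (within 0.1) in all libraries. At the median depth, 1 FPKM in a gene of 1 kb is 19 fragments. Genes that exceeded an FPKM of 1 in 3 or more libraries of a comparison were tested with limma 3.58.1 (R 4.3.3) on log2(FPKM + 0.5), two-sided with intensity trend, and p-values were adjusted by Benjamini-Hochberg over all genes tested. There were 12 comparisons. The script was tested on simulated data. Deviations of same-numbered control and co-cultured libraries correlated at 0.55 to 0.82 (24 h) and 0.48 to 0.6 (72 h) in the standard model, which pairs them, and at -0.17 to 0.1 in the inverse model, which does not. The members and gene lists were chosen with earlier results of these data known. All members were named, with the called genes of each list (at most 4 per comparison and direction, by fold change) and the genes most like each member. Alternatives covered pseudocount, filter, scaling, voom, replicate block, a joint model and left-out libraries. Some alleles and list genes are not reported here.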

Additional observations from a re-analysis of the deposited data

How the results depend on the processing

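Counts of members called at an adjusted p under 0.05 (limma) depended on these settings, and the cause was not tested. The share of all genes called is not given for most settings, so these counts are no result about the members. In the inverse model at 24 h (3 called) the count was 1 with all 24 libraries in 1 fit, 5 with voom on recovered fragments (Mmp14 and Timp3 added), 0 without replicate 2 of both groups, and 2 to 4 without single libraries. At 72 h (5 called) it was 0 with no filter, 3 with median-ratio scaling, 0, 2 and 2 without replicate 1, 2 or 3 of both groups, and 0 to 6 without single libraries. The 0 was without replicate 1 of the co-culture, the 1 without replicate 3 of the control, and 2 without replicate 1 or 2 of the control. In the standard model the count was 2 with the replicate block at 24 h and 1 with all 24 libraries at 72 h. For inverse controls it was 0 with all 24 libraries and 2 to 3 without single libraries. Numbers do not pair libraries of the inverse model, for which the block gave 2 at 24 h and 4 at 72 h. Leaving out both libraries of a number was chosen after seeing the data. Of 16 genes most like a member over 24 libraries, 2 ranked first over 8 group means. Of the other counts 237 stayed within 1.5 times, and of the values of single members 808 kept direction and call, 15 gained and 51 lost a call.

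The members whose log2 fold change turned its sign were uncalled. Without single libraries, Mmp2 ran from -0.25 to 0.64 and Mmp19 from -0.1 to 0.31 in the standard model at 24 h, Mmp2 from -0.64 to 0.27 at 72 h, and Mmp19 from -0.16 to 0.09 in the inverse model at 72 h. In standard controls over time Mmp2 ran from -0.1 to 0.9, Mmp3 from -0.81 to 2.47, Mmp10 from -1.09 to 0.06, Mmp14 from -0.15 to 0.14, Mmp19 from -0.17 to 0.29 and Timp3 from -0.21 to 0.44, and in inverse controls Mmp14 from -0.16 to 0.01 and Timp3 from -0.23 to 0.18. Mmp19 at 72 h was 0.13 with median-ratio scaling, 0.11 with quantile normalization, and 0.04 and 0.05 without replicate 1 or 3 in the inverse model, and -0.02 without replicate 1 in the standard model, where Mmp2 was 0.3 without replicate 2. Mmp19 at 72 h was 0.46 without replicate 2 in the standard model, and without replicate 3 and 2 the standard controls gave -1.22 for Mmp10 and 0.15 for Mmp14. In standard controls Mmp3 was -0.05 with voom, and Mmp14 -0.12 and Timp3 -0.02 without replicate 1. In inverse controls Mmp14 was 0.12 with quantile normalization and Timp3 0.24 without replicate 1. With 3 libraries a group, an exact permutation test of a single value cannot go below 0.1, and Mmp9 and Mmp13 rest on few fragments.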

Other observations

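The chromosome 9 cluster holds 9 MMP genes within 427 kb of GRCm38. Mmp12, the macrophage elastase, was at 1.56 to 62.2 FPKM and above 1 in all 24 libraries. Mmp8, the neutrophil collagenase, reached 2.35 and Mmp27 3.03 FPKM, and Mmp1b reached 0.357. Mmp7 and Mmp20 were listed at 0 in all 24 libraries, although TGANTCA was found in their promoters as in those of Mmp1b, Mmp3, Mmp10 and Mmp13.

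Among 11425 genes, the gene whose level on the log2 scale was most like that of a member over the 24 libraries was Slc36a2 for Mmp2 (Pearson's r 0.95), Serpina3n for Mmp3 (0.97), Ch25h for Mmp10 (0.91) and Pygb for Mmp14 (0.94). It was Ltbp3 for Mmp19 (0.91), Fkbp11 for Timp1 (0.91), Fgfrl1 for Timp2 (0.94) and Myo1d for Timp3 (0.89). Between members, Mmp3 and Mmp19 correlated at 0.86 and Mmp3 and Mmp14 at -0.79, Timp1 and Timp2 at -0.69 and Mmp3 and Timp1 at 0.47. These 24 libraries share groups and depth, so the values are descriptions.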
